A study of Solanum tuberosum with 6 samples.

Results

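The comparison asked whether the leaf transcriptome of the potato cultivar KY130 responded to cold stress (CS) differently from that of KY140. It is an interaction: the change from untreated to treated KY130 minus the change from untreated to treated KY140. A positive value means a higher treated-to-untreated ratio in KY130, and a negative value a higher ratio in KY140. It was computed from 12 of the 18 libraries in the deposited count table, libraries 1 to 3 of each of 4 groups, and was repeated without the library CS-KY130-3. The rule that picked the 12 libraries used only their labels, and the labels give no reason for leaving CS-KY130-3 out of the repeat.

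KY130 and KY140 were leaves of untreated plants at 25°C for 12 h, and CS-KY130 and CS-KY140 were leaves of the same cultivars after 12 h at −4°C. All were tissue culture seedlings grown for 18 days on MS medium, under 2500 lx with 16 h of light per day. The treatment field of the labels gives 12°C for the treated groups where their titles give −4°C, and the title is followed here. The study describes KY140 as cold-sensitive, and the sources used here give no cold tolerance for KY130. Each group is a single record with 3 numbered libraries, which the series' design text counts as replicates. The study's methods call the replicates of Atlantic and KY140 biological and do not describe KY130, and no source used here says whether the KY130 libraries come from separate plants or exposures, so the p-values measure only the spread between these libraries, which may be technical. In bulk leaf RNA, fewer cells of a type and less RNA per cell cannot be told apart, and the leaf identity could not be checked against markers because the files describe no gene.

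Plants that meet freezing temperatures reprogram signalling and defence metabolism within hours. Jasmonate is a hormone made from linolenic acid of chloroplast membranes: lipoxygenases (LOX) oxygenate the fatty acid, allene oxide cyclase (AOC) closes the ring, and OPC-8:0 CoA ligase (OPCL1) activates the intermediate that is then shortened to jasmonic acid. Other lipoxygenases act at another carbon of the fatty acid and lead to oxylipins other than jasmonate. The phenylpropanoid pathway leads from phenylalanine to lignin and flavonoids through phenylalanine ammonia-lyase (PAL), cinnamate hydroxylase (CYP73A) and 4-coumarate:CoA ligase (4CL), while caffeoyl shikimate esterase (CSE) releases caffeic acid on the lignin branch. Glutamate decarboxylase (GAD) makes γ-aminobutyric acid (GABA), which accumulates in many stressed plants.

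The libraries held 11047494 to 14971945 counts, and 103843 of the 114281 genes in the table had at least 1 count. The number of genes detected varied within groups. It was 66743, 60017 and 68376 in KY130, 50417, 56550 and 72029 in CS-KY130, 45305, 65787 and 53368 in KY140, and 62388, 69917 and 69567 in CS-KY140, in the order of libraries 1 to 3. On the log2(CPM + 1) scale, CPM being counts scaled to a common library size, CS-KY130-3 correlated with the untreated KY130 libraries at r = 0.916, 0.898 and 0.916 across genes, and with CS-KY130-1 and CS-KY130-2 at 0.863 and 0.894. It thus stood nearer to the untreated group than to its own in these values. CS-KY130-1 and CS-KY130-2 correlated with each other at 0.853, below their values with CS-KY130-3. CS-KY130-2 correlated with KY130-1 to KY130-3 at 0.851, 0.859 and 0.847, so such closeness was not particular to CS-KY130-3. KY140-2 correlated with CS-KY140-1 to CS-KY140-3 at 0.890, 0.927 and 0.900, and with KY140-1 and KY140-3 of its own group at 0.847 and 0.907. Libraries of different cultivars correlated at 0.480 to 0.586. Genes carry identifiers of the Atlantic genome annotation, where every chromosome copy has genes of its own, and how reads shared between copies were counted is not given in the sources used here, so the value of any single copy is uncertain.

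Few genes differed in their cold response between KY130 and KY140 beyond the spread of the libraries. With all 12 libraries, edgeR's quasi-likelihood test called 1 of 64732 genes at a Benjamini-Hochberg FDR of 0.05 (0.00154%), Soltu.Atl.06_2G004220, which rose in KY130 and fell in KY140. No gene passed with a negative interaction, although 2951 negative and 1558 positive ones had an unadjusted p under 0.05. DESeq2 called 378 genes (134 positive, 0.214%, and 244 negative, 0.389%; 0.602% of 62746) and limma-voom 2, both positive. The common biological coefficient of variation, the spread between libraries of one group, was 92.0%. The edgeR count was 17 without CS-KY130-3, 162 without KY140-2 (8 positive and 154 negative) and 0 without any other single library.

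The identifier places Soltu.Atl.06_2G004220 on copy 2 of chromosome 6, and the files give it no description. Its level was 40.0, 19.5 and 28.3 CPM in the untreated KY130 libraries and 224, 178 and 94.4 CPM in CS-KY130. In KY140 it was 217, 168 and 187 CPM, and in CS-KY140 47.6, 40.0 and 22.2 CPM. All treated libraries were therefore above all untreated ones in KY130 and below them in KY140, a pattern that 0.204% of the tested genes shared. The mean rose from 29.3 ± 10.3 to 165 ± 65.8 CPM in KY130 and fell from 191 ± 24.3 to 36.6 ± 13.03 CPM in KY140 (SD, n = 3), so that the mean of untreated KY140 lay near that of treated KY130. The log2FC was 2.50 in KY130 (standard error 0.42, adjusted p = 0.0123) and −2.38 in KY140 (0.41, adjusted p = 0.0110). The interaction was 4.88 (standard error 0.59, 95% interval 3.63 to 6.13, adjusted p = 0.0398 by edgeR), and across 24 alternatives it ranged from 4.49 to 5.15 with adjusted p from 1.54e-12 to 0.177.

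The rule for naming unannotated genes, lowest p in each direction, added 3 genes that edgeR did not call. Soltu.Atl.02_4G024840 (copy 4 of chromosome 2) was at 71.2, 97.5 and 62.2 CPM in KY130 and stayed at 60.5, 52.5 and 71.4 CPM in CS-KY130. In KY140 it was at 5.27, 2.41 and 7.14 CPM, and in CS-KY140 at 0.083, 0.078 and 0.17 CPM, which are 1, 1 and 2 counts. The untreated KY140 libraries held 177 counts against 4 in CS-KY140, a ratio of 45.7 after division by the TMM library sizes that the CPM use (exact 95% interval 17.5 to 169, counting error only). The interaction was 5.03 (SE 0.74, 95% interval 3.46 to 6.61), with an adjusted p of 0.210 by edgeR. DESeq2 gave an adjusted p of 0.000627.

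The other 2 genes named by the rule had a count of 0 in all 3 untreated KY140 libraries. A numbered gene, 21139, which has no identifier of that annotation, was at 165, 152 and 142 CPM in KY130 and 35.9, 107 and 56.6 CPM in CS-KY130, a fold of 0.435. In CS-KY140 it was at 0.83, 0.86 and 2.88 CPM, at least 5.93-fold higher than the level of 3 counts per untreated library. It was thus lower in every treated than in every untreated KY130 library and the reverse in KY140, as were 0.394% of the tested genes. Soltu.Atl.06_4G015660 (copy 4 of chromosome 6) was at 29.9, 68.8 and 38.9 CPM in KY130 and 45.7, 85.0 and 37.7 CPM in CS-KY130, a fold of 1.22. In CS-KY140 it was at 5.23, 2.35 and 11.4 CPM, at least 24.7-fold higher than the same floor. The adjusted p of both interactions was 0.230 by edgeR, and the fitted interaction is not quoted because it depends on the prior count for a group at 0. Both belong to a set of 863 genes with at least 20 CPM in every library of the KY130 cultivar. Each gene of the set had a count of 0 in at least 1 library of the KY140 cultivar. The summed level of the set was 2.41, 2.64 and 3.67% of its KY130-cultivar mean in CS-KY140, and 0.70, 2.22 and 1.67% in KY140. Whether the 2 genes differ from this set was not tested.

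**Figure D1:**
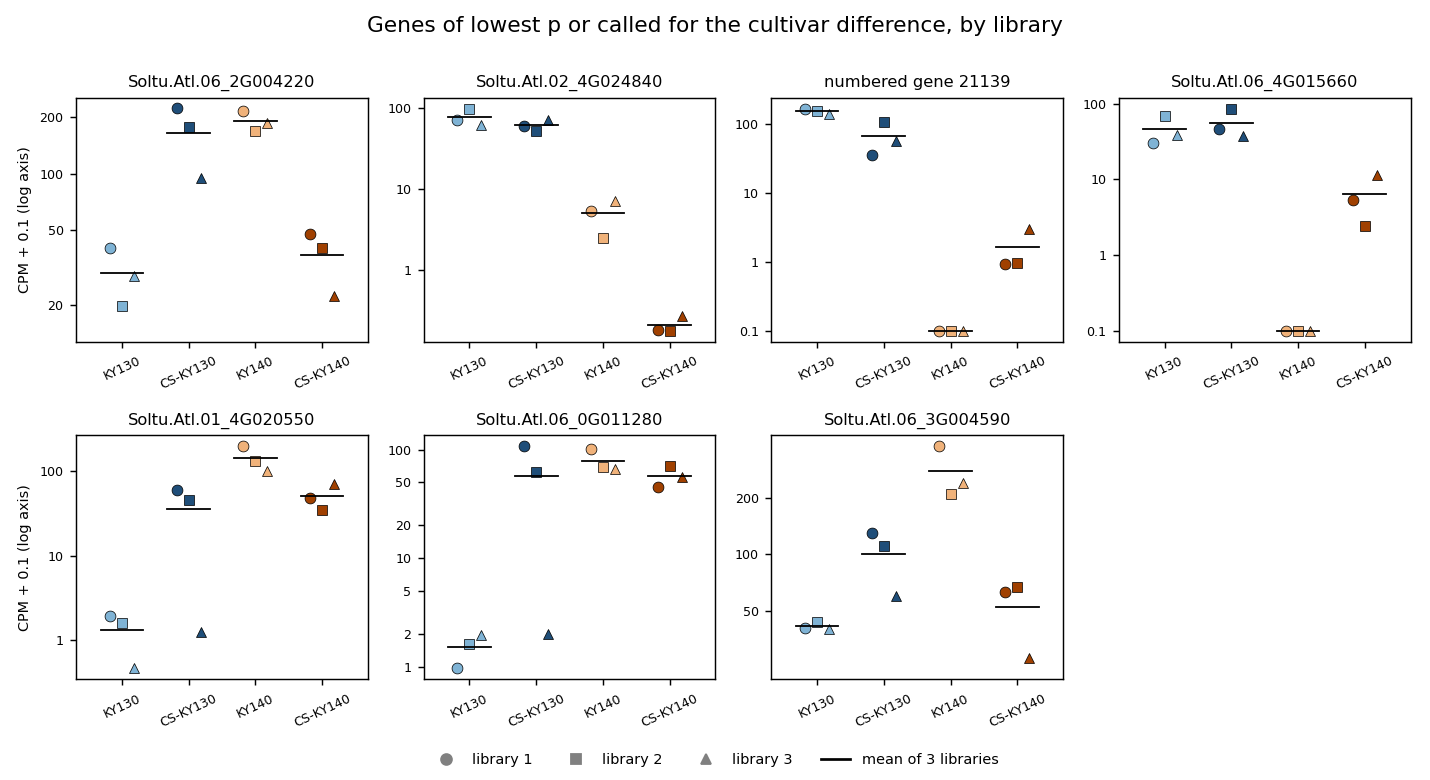
CPM + 0.1 (log axis) of 7 unannotated genes in each of the 12 libraries: the 4 genes of lowest interaction p by the naming rule, and 3 further genes called positive without CS-KY130-3. Colours mark the groups, symbols the library number and lines the group mean. Soltu.Atl.06_2G004220 rises in KY130 and falls in KY140, and in Soltu.Atl.01_4G020550 and Soltu.Atl.06_0G011280 the library CS-KY130-3 (1.16 and 1.90 CPM) sits with the untreated KY130 libraries.

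In most genes called in one cultivar the sign of the log2FC was shared by the other. In the 12-library fit, 305 genes (0.471%) were differentially expressed genes (DEGs) in KY130, with a |log2FC| of at least 1 and an FDR under 0.05, 273 upregulated (0.422%) and 32 downregulated (0.0494%). In KY140 there were 680 (1.05%), 603 upregulated (0.932%) and 77 downregulated (0.119%). The 174 DEGs of both cultivars were 57.0% of the KY130 list and 25.6% of the KY140 list, and 168 of them were upregulated in both, 5 downregulated in both and 1 opposite, which was Soltu.Atl.06_2G004220. The KY130 count was 689 without CS-KY130-3 (353 upregulated, 0.503%, and 336 downregulated, 0.479%), 155 without CS-KY130-2, 139 without KY130-1 and 122 without KY130-3. The KY140 count was 1456 without KY140-2, 431 without CS-KY140-1, 370 without CS-KY140-3 and 355 without KY140-3.

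The DEGs of one cultivar were then read in the libraries of the other, which entered their choice only through the shared filter, scaling and dispersion estimates. Of the 603 genes upregulated in KY140, 573 (95.02%) had a positive log2FC in KY130, where 44.4% of all tested genes did. Their median log2FC was 2.19 in KY130 against 5.21 in KY140, the latter including the effect of choosing them there. In 466 of them (77.3%) every CS-KY130 library was above every KY130 library, against 8.09% of all tested genes. Of the 273 genes upregulated in KY130, 260 (95.2%) had a positive log2FC in KY140, where 52.3% of all genes did, and 234 (85.7%) were separated upwards there, against 12.1%. The shared direction was thus present in nearly all upregulated genes of either list, and 1 of the 273 and 0 of the 603 had a called interaction by edgeR (81 and 297 at an unadjusted p under 0.05). Over all 64732 tested genes, 1 was called and 4509 had an unadjusted p under 0.05. The lists were chosen by 1 of the 2 responses that form the interaction, and this choice enters their counts.

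Fewer genes were downregulated in either cultivar. Of the 77 genes downregulated in KY140, 63 (81.8%) had a negative log2FC in KY130, where 50.5% of all genes did, with a median of −1.03. In 49 of them (63.6%) every treated KY130 library was below every untreated one, against 9.01% of all genes. Of the 32 genes downregulated in KY130, 26 (81.2%) had a negative log2FC in KY140, where 40.8% of all genes did, with a median there of −0.33, and 11 (34.4%) were separated downwards, against 5.66%. Without CS-KY130-3 the KY130 list of downregulated genes grew to 336, of which 218 (64.9%) were negative in KY140, where 40.2% of all genes were, with a median of −0.20. By edgeR, 331 of these 336 had an unadjusted interaction p under 0.05 and 13 were called, with a median interaction of −6.78. With 12 libraries such a p was found for 50 of the 77 and 24 of the 32, against 4509 of all 64732. The choice of the lists by 1 of the 2 responses enters these counts.

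The comparison was repeated for the 16143 genes with a mean of at least 5 CPM in both cultivars. In these genes the 2 responses correlated at r = 0.584 across genes (0.244 over all 64732), a description with no p since genes are not independent replicates. The common coefficient of variation was 52.8%, and 427 genes (2.65%) were DEGs in KY130, 386 upregulated (2.39%) and 41 downregulated (0.254%). In KY140 there were 666 (4.13%), 515 upregulated (3.19%) and 151 downregulated (0.935%). Both lists held 240 genes, 56.2% of the KY130 and 36.0% of the KY140 list, with 220 upregulated in both, 18 downregulated in both and 2 opposite. Of the 515 genes upregulated in KY140, 498 (96.7%) were also positive in KY130, where 49.4% of the genes of this fit were, with a median log2FC of 2.12 there against 2.93 in KY140. Of the 151 downregulated in KY140, 118 (78.1%) were also negative in KY130, against 50.6% of the genes of this fit, with a median of −0.61 there against −1.90 in KY140. An unadjusted interaction p under 0.05 was found by edgeR for 156 of the 515 and for 98 of the 151, against 1387 of all 16143. The choice of these genes by their KY140 response enters the first 2 counts. The interaction again passed for 1 gene (0.00619%), Soltu.Atl.06_2G004220.

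**Figure D2:**
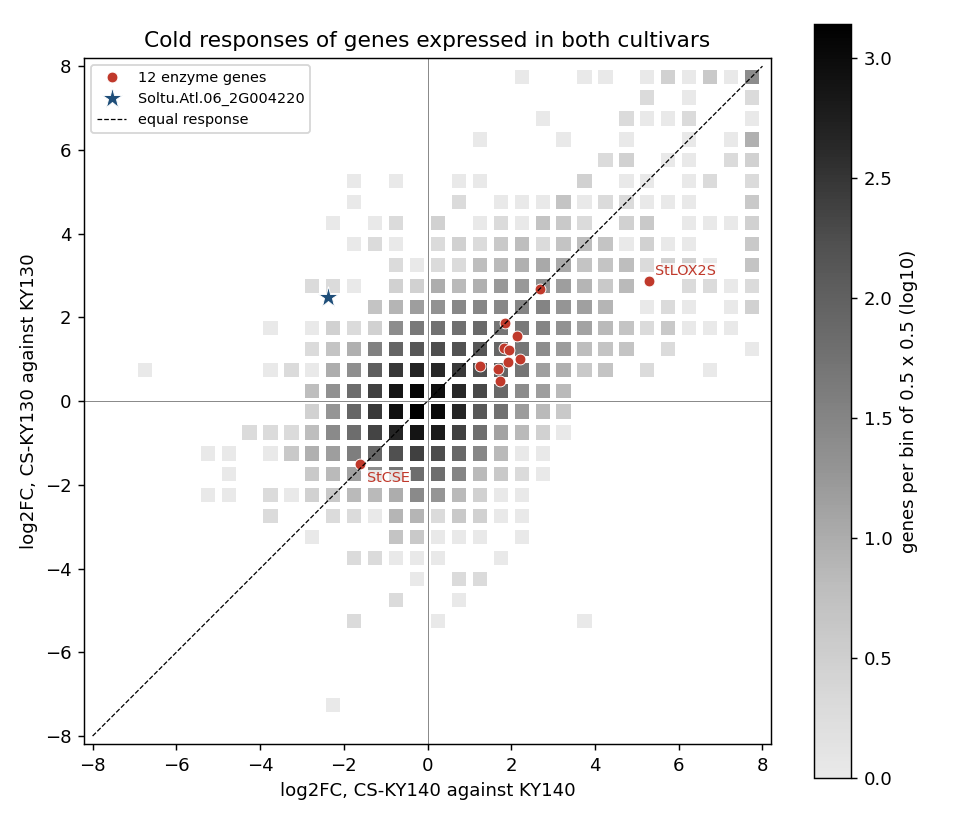
log2FC of CS-KY130 against KY130 (vertical) and of CS-KY140 against KY140 (horizontal) for the 16143 genes with at least 5 CPM in both cultivars, in bins of 0.5 whose shade gives the number of genes on a log10 scale; values beyond 8 are drawn in the outermost bins, and the dashed line marks equal responses. The enzyme genes (red, values of the 12-library fit) follow the line or lie below it, while Soltu.Atl.06_2G004220 (star) lies in the opposite quadrant at 2.50 in KY130 and −2.38 in KY140.

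None of the 12 enzyme genes that the study names by identifier had a called interaction. Their log2FC was positive in 11 of 12 genes in KY130 and in the same number in KY140, with a median of 1.10 in KY130 and 1.89 in KY140. All 3 treated libraries lay above all 3 untreated ones for 11 of 12 genes in KY140 (12.1% of all genes) and for 3 of 12 in KY130 (8.09%). Those 3 were StLOX2S and StOPCL1 copy a, which belong to the jasmonate route, and StLOX1_5, a linoleate 9S-lipoxygenase, and they were separated upwards in both cultivars, as were 2.96% of all genes. As DEGs, StLOX2S rose and StCSE fell in KY140, and in KY130 StCSE fell and 0 rose. Without CS-KY130-3, 3 rose in KY140 (StLOX2S, StOPCL1 copy a and St4CL) and 2 in KY130 (StOPCL1 copy a and St4CL), while StCSE fell in KY140 and 0 fell in KY130. The interaction was negative for 10 of the 12, with a median of −0.65 against −0.31 over all genes, and adjusted p from 0.738 to 1.00 by edgeR. None of the 12 had an unadjusted p under 0.05 by edgeR, DESeq2 or limma-voom, and no alternative called one. The study picked these genes in Atlantic and KY140, partly from the same KY140 libraries, so their direction in KY140 is not independent evidence. This choice can also enlarge their KY140 response, which lowers the interaction of upregulated genes. The counts of negative interactions, here and in the lists below, are therefore not independent evidence of a weaker response in KY130.

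**Figure D3:**
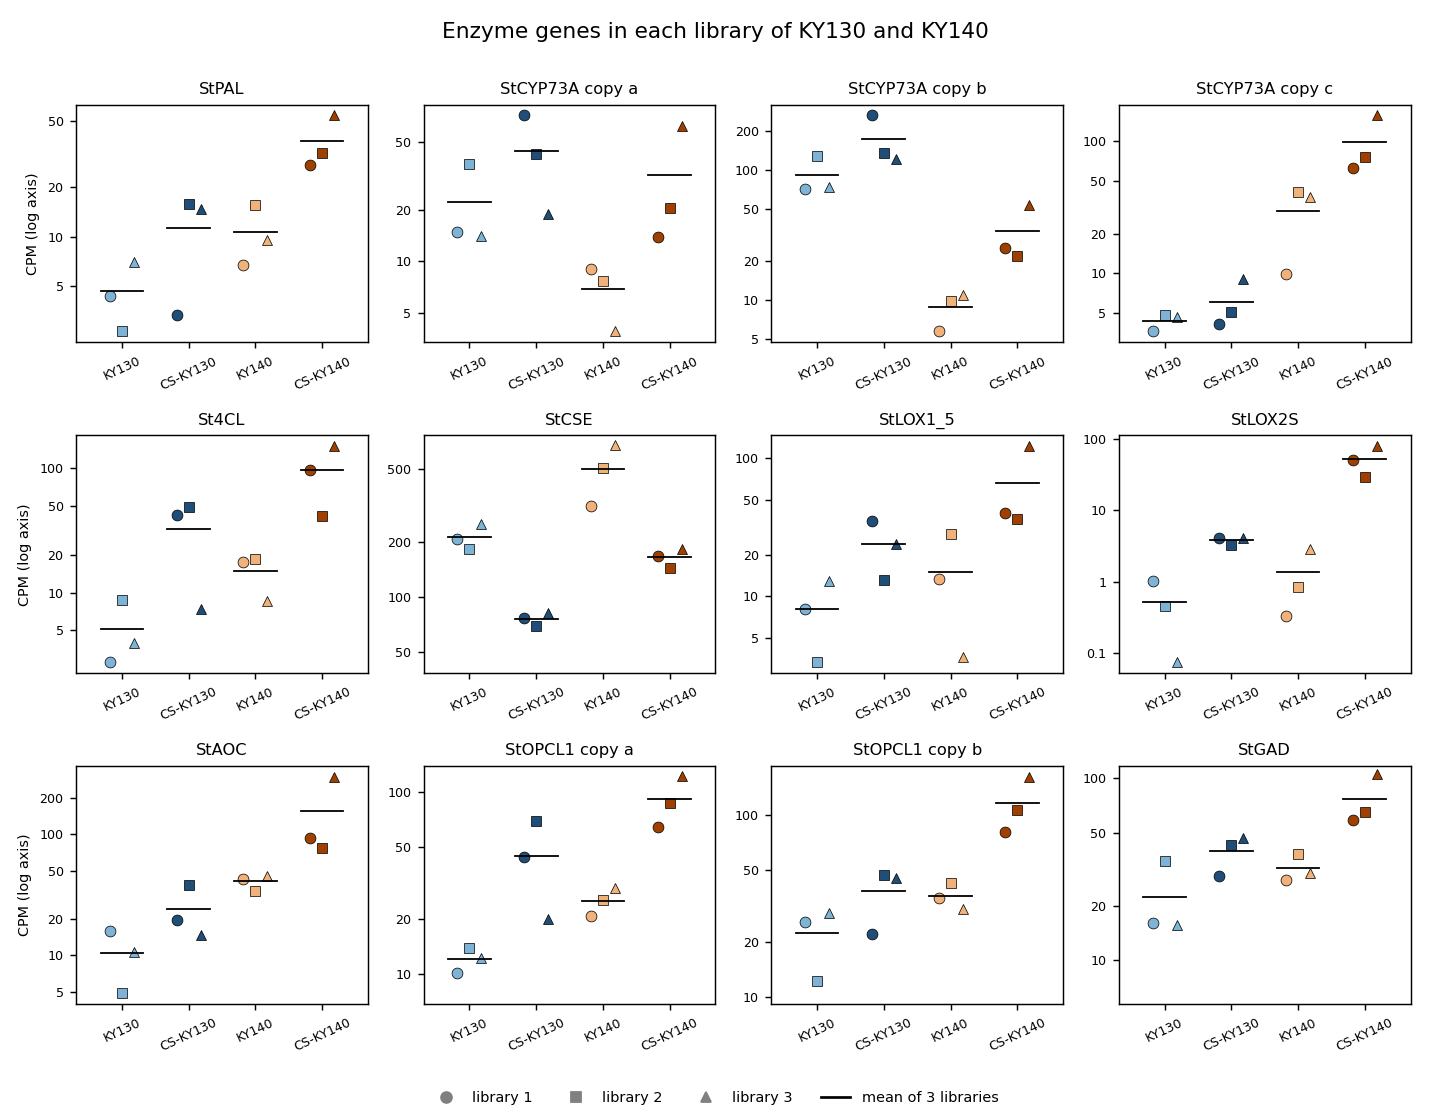
CPM (log axis) of the 12 enzyme genes in each library of the 4 groups, with symbols for library numbers and lines for the mean of 3 libraries. CS-KY140-3 is the highest treated KY140 library in all 12 panels, and StCSE is the gene whose treated libraries lie below the untreated ones in both cultivars.

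Among the 4 genes of the jasmonate route, 3 had a negative and 1 a positive interaction (median −0.83). With StLOX1_5, which the list also held, 4 of 5 were negative (median −0.73). The widest gap was in StLOX2S (Soltu.Atl.03_0G008370), a lipoxygenase. It was at 1.03, 0.46 and 0.074 CPM in KY130 and 4.11, 3.31 and 4.05 CPM in CS-KY130. In KY140 it was at 0.32, 0.84 and 2.91 CPM, and in CS-KY140 at 50.8, 29.3 and 79.1 CPM. The groups did not overlap in either cultivar, and every CS-KY140 library was above every CS-KY130 library. The mean of the treated libraries was 3.82 ± 0.45 CPM in KY130 and 53.1 ± 25.0 CPM in KY140 (SD, n = 3). StLOX2S rose in KY140 (log2FC 5.28, standard error 0.93, adjusted p = 0.0120), and its log2FC of 2.86 in KY130 (0.87, adjusted p = 0.249) was not called by edgeR, while DESeq2 gave an adjusted p of 0.0372 there. The interaction was −2.41 (standard error 1.18, 95% interval −4.93 to 0.10, adjusted p = 0.738), so a difference of that size was not separated from the spread.

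The other lipoxygenase, the 9S-lipoxygenase StLOX1_5 (Soltu.Atl.01_4G023960), was at 8.05, 3.34 and 12.99 CPM in KY130 and 35.1, 13.1 and 24.0 CPM in CS-KY130. It was at 13.5, 28.0 and 3.65 CPM in KY140 and 39.9, 36.0 and 122 CPM in CS-KY140. Treated libraries were above untreated ones in both cultivars, by a narrow margin in KY130, and the interaction was −0.57 (standard error 1.01). StAOC (Soltu.Atl.02_2G023780), the cyclase, was at 15.9, 4.87 and 10.6 CPM in KY130 and 19.5, 38.3 and 14.6 CPM in CS-KY130, which overlapped. In KY140 it went from 42.4, 34.1 and 45.4 CPM to 92.9, 77.2 and 297 CPM with no overlap, and the interaction was −0.73 (0.78). Without CS-KY140-3, the interaction of StLOX1_5 was 0.22 and that of StAOC 0.14, so the sign of both rested on that library.

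StOPCL1 was represented by 2 copies, both on chromosome 12. Copy a (Soltu.Atl.12_2G005410) went from 10.2, 14.0 and 12.3 CPM to 43.8, 69.1 and 20.1 CPM in KY130, and from 20.8, 25.6 and 29.5 CPM to 63.7, 86.9 and 122 CPM in KY140. The groups did not overlap in either cultivar, with log2FC of 1.87 and 1.84 (adjusted p = 0.114 and 0.0770 by edgeR) and an interaction of 0.02 (95% interval −1.29 to 1.34). Without CS-KY130-3 copy a passed in KY130 at 2.19 (adjusted p = 0.0242) and in KY140 at 1.84 (adjusted p = 0.0446). Copy b (Soltu.Atl.12_3G004550) was at 25.9, 12.3 and 28.8 CPM in KY130 and 22.1, 46.6 and 45.2 CPM in CS-KY130, which overlapped. In KY140 it went without overlap from 34.9, 42.3 and 30.3 CPM to 80.4, 106 and 162 CPM, and the interaction was −0.93 (standard error 0.61, adjusted p = 0.825). Whether the copies differed from each other was not tested.

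Among the 6 phenylpropanoid genes, 5 had a negative and 1 a positive interaction (median −0.78). StPAL (Soltu.Atl.09_2G005110), the entry enzyme, was at 4.34, 2.66 and 7.01 CPM in KY130 and 3.32, 15.6 and 14.7 CPM in CS-KY130, where library 1 stayed in the untreated range. In KY140 it went from 6.73, 15.5 and 9.55 CPM to 27.2, 32.1 and 54.2 CPM. The log2FC was 1.26 in KY130 and 1.84 in KY140, and the interaction −0.57 (standard error 0.90, 95% interval −2.50 to 1.35).

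The 3 copies of StCYP73A, all on chromosome 6, stood at different levels in the cultivars. Copy b (Soltu.Atl.06_4G021450) was at 71.8, 128 and 74.8 CPM in KY130 and 265, 137 and 123 CPM in CS-KY130, but at 5.76, 9.93 and 11.05 CPM in KY140 and 25.4, 21.9 and 54.4 CPM in CS-KY140. Copy c (Soltu.Atl.06_1G015640) was at 3.63, 4.79 and 4.65 CPM in KY130 and 4.11, 5.10 and 9.08 CPM in CS-KY130, but at 9.89, 41.3 and 37.6 CPM in KY140 and 63.1, 76.4 and 157 CPM in CS-KY140. Every KY130 library was thus above every KY140 library for copy b and below every one for copy c. Copy a (Soltu.Atl.06_4G021440) lay between 14.0 and 71.1 CPM in the KY130 libraries of both conditions and went from 9.08, 7.70 and 3.90 CPM to 13.9, 20.4 and 61.7 CPM in KY140. The interactions of copies a, b and c were −1.21, −0.99 and −1.26 (standard errors 0.92, 0.63 and 0.77, adjusted p 0.867, 0.817 and 0.809), each from a larger log2FC in KY140 (2.21, 1.93 and 1.74) than in KY130 (1.00, 0.93 and 0.48). All 3 were negative in every alternative.

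St4CL (Soltu.Atl.03_3G030960), which activates coumarate, was at 2.76, 8.74 and 3.91 CPM in KY130 and 41.8, 49.0 and 7.35 CPM in CS-KY130, with library 3 inside the untreated range. In KY140 it went from 17.5, 18.6 and 8.55 CPM to 96.4, 41.2 and 149.9 CPM. The log2FC was 2.67 in KY130 (adjusted p = 0.159) and 2.68 in KY140 (adjusted p = 0.0985), and the interaction was −0.02 (standard error 1.03), with a sign that turned under other scalings. Without CS-KY130-3, St4CL passed in KY130 at a log2FC of 3.12 (adjusted p = 0.0287) and in KY140 at 2.68 (adjusted p = 0.0476), and the interaction was 0.44 (95% interval −1.29 to 2.17).

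StCSE (Soltu.Atl.04_4G005370) was the member of the 12 that fell, and it fell in both cultivars. It went from 209, 182 and 251 CPM to 76.6, 69.7 and 81.9 CPM in KY130, and from 317, 509 and 685 CPM to 169, 144 and 184 CPM in KY140. All treated libraries were below all untreated ones in both cultivars, as for 0.84% of all genes. The log2FC was −1.49 in KY130 (standard error 0.30, adjusted p = 0.0406) and −1.60 in KY140 (0.30, adjusted p = 0.0162). Its interaction of 0.11 had the narrowest interval of the 12, from −0.77 to 0.99. Without CS-KY130-3 the log2FC in KY130 was −1.58 with an adjusted p of 0.0519, which missed the threshold.

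StGAD (Soltu.Atl.11_3G000340), which makes GABA, was at 16.0, 34.9 and 15.7 CPM in KY130 and 29.1, 43.2 and 46.7 CPM in CS-KY130, which overlapped through library 2 of KY130. In KY140 it went from 27.7, 38.1 and 30.0 CPM to 59.1, 65.0 and 105 CPM without overlap. The log2FC was 0.84 and 1.26, and the interaction −0.42 (standard error 0.59, 95% interval −1.69 to 0.84). Across the 12 genes CS-KY140-3 was the highest treated KY140 library 12 times, and its part in the negative interactions was not tested beyond leaving it out, which turned the sign of St4CL, StLOX1_5 and StAOC. CS-KY130-1 and CS-KY130-3 each lay inside the untreated KY130 range in 4 genes and CS-KY130-2 in 0.

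**Figure D4:**
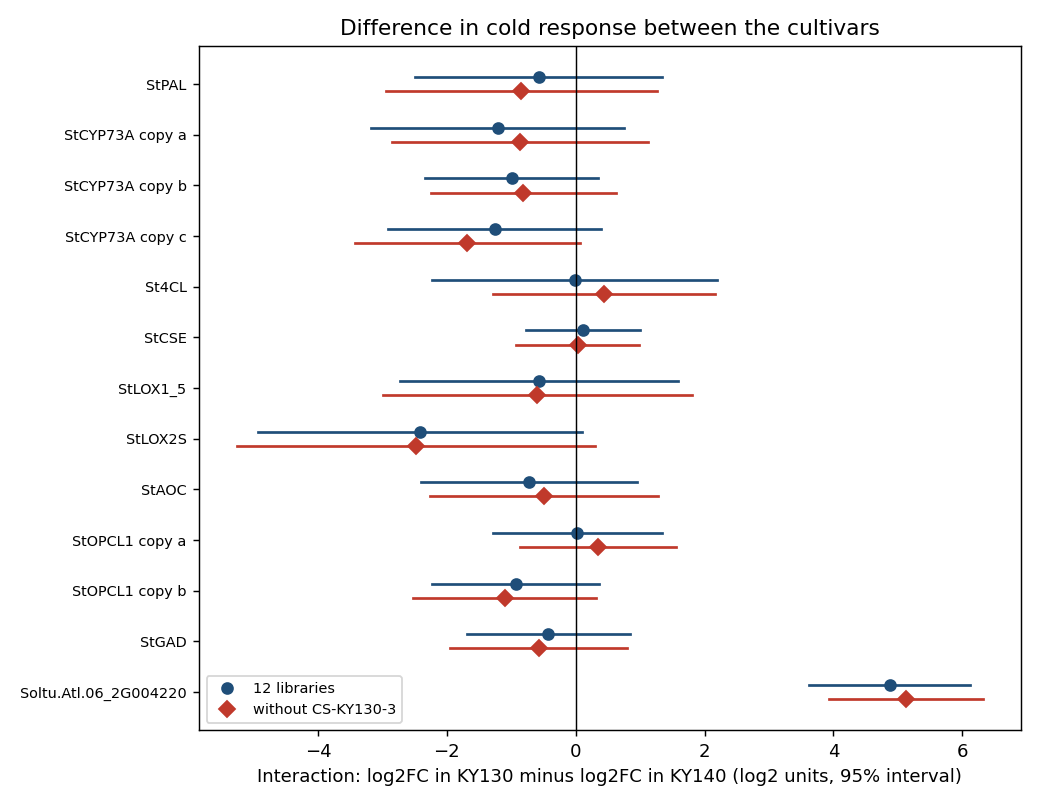
Interaction (log2FC in KY130 minus log2FC in KY140, log2 units) with its 95% interval for the 12 enzyme genes and Soltu.Atl.06_2G004220, with 12 libraries (blue) and without CS-KY130-3 (red). The intervals of all 12 enzyme genes include 0 in both fits, and that of Soltu.Atl.06_2G004220 runs from 3.63 to 6.13 with 12 libraries.

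Without CS-KY130-3, edgeR called 17 of 70172 genes (0.0242%), 4 positive (0.0057%) and 13 negative (0.0185%), and DESeq2 called 1604 (2.6% of 61693), 341 positive (0.553%) and 1263 negative (2.05%). In the 13 negative genes all 26 values of CS-KY130-1 and CS-KY130-2 were below 3 CPM, and 17 of them were counts of 0. The untreated KY130 libraries were at 0.68 to 102 CPM in these genes, and CS-KY130-3, which was left out, was at 2.06 to 54.3 CPM, above both other treated libraries in 13 of 13 and within the untreated range in 7. In KY140 the 13 genes were at 9.80 to 415 CPM, with a higher mean than in KY130 in 13 of 13. All 13 were thus at or near 0 in 2 treated KY130 libraries and not in the third. They were called from low values in CS-KY130-1 and CS-KY130-2 with CS-KY130-3 left out, so its place above them partly follows from the choice. A set of 856 genes had at least 20 CPM in every library of the KY140 cultivar. Each had a count of 0 in at least 1 library of the KY130 cultivar. In CS-KY130-1 to CS-KY130-3, 65.7, 55.6 and 35.7% of them were at 0, against 41.8, 50.4 and 38.6% in KY130. Their summed level was 0.59, 1.18 and 1.61% of the KY140-cultivar mean in CS-KY130, and 1.75, 1.29 and 2.06% in KY130. Whether the 13 differ from this set was not tested. All 13 also had a negative interaction with 12 libraries, and none was called there. That fit holds all the libraries of this one, so the shared sign is not separate evidence. Leaving out a further library moved the count from 17 to between 1 (without CS-KY140-2) and 258 (without CS-KY130-2), with 103 without KY140-2 and 46 without KY130-2. The 258 come from a fit in which CS-KY130-1 is the only CS-KY130 library left and is assumed to vary like the other groups, and the same holds for the 16 without CS-KY130-1, which leave CS-KY130-2. With 2 or more libraries in every group the count was 1 to 103.

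The 4 positive genes of that fit were Soltu.Atl.06_2G004220 and 3 genes that are named here after their values were seen. Soltu.Atl.01_4G020550 was at 1.82, 1.52 and 0.37 CPM in KY130 and 60.0, 45.5 and 1.16 CPM in CS-KY130, while KY140 held 194, 132 and 101 CPM and CS-KY140 48.2, 34.6 and 69.1 CPM. Soltu.Atl.06_0G011280 was at 0.87, 1.52 and 1.85 CPM in KY130 and 107, 62.5 and 1.90 CPM in CS-KY130, with 102, 68.5 and 65.4 CPM in KY140 and 45.4, 70.8 and 55.9 CPM in CS-KY140. For these 2 genes CS-KY130-3 looked untreated, and the interactions without it were 6.88 (standard error 0.76, adjusted p = 0.00981) and 6.33 (0.62, adjusted p = 0.00653), against 6.33 and 5.78 with it (adjusted p = 0.344 for both).

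Soltu.Atl.06_3G004590 was at 40.6, 43.3 and 40.0 CPM in KY130 and 130, 111 and 60.1 CPM in CS-KY130, and fell from 379, 211 and 242 CPM in KY140 to 63.0, 66.9 and 27.9 CPM in CS-KY140. Its order of groups is that of Soltu.Atl.06_2G004220, and the identifiers place them on copies 3 and 2 of chromosome 6, though no source used here says whether they are copies of one gene. The interaction was 3.92 without CS-KY130-3 (standard error 0.54, adjusted p = 0.0348) and 3.68 with it (0.57, adjusted p = 0.230). Of the 4 positive genes, 3 are on chromosome 6, which held 6.79% of the tested genes. Of the 341 genes that DESeq2 called positive without CS-KY130-3, 27 (7.92%) are there, against 6.92% of the genes it tested. In all 4 genes that edgeR called positive, CS-KY130-3 was the lowest treated KY130 library, which partly follows from calling them without it.

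The median interaction was negative, and it was lower in classes of genes with a lower level. Over all 64732 genes the median interaction was −0.31 and 58.3% were negative, although the medians of the single responses were −0.01 in KY130 and 0.07 in KY140. By mean level over the libraries, the median was −0.87 under 1 CPM, −0.46 from 1 to 5 CPM, −0.25 from 5 to 20 CPM, −0.11 from 20 to 50 CPM and 0.05 at 50 CPM or more. Without CS-KY130-3 the same medians were −1.70, −0.88, −0.41, −0.20 and 0.01. In the 16143 genes with at least 5 CPM in both cultivars the median was 0.02. CS-KY130-1, CS-KY130-2, KY140-1 and KY140-3 detected the fewest genes of their groups, and their part in the medians was not tested apart from leaving libraries out. Under 1 CPM the median was −0.79 without CS-KY130-1, −0.73 without KY140-1 and −1.65 without KY140-2.

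**Figure D5:**
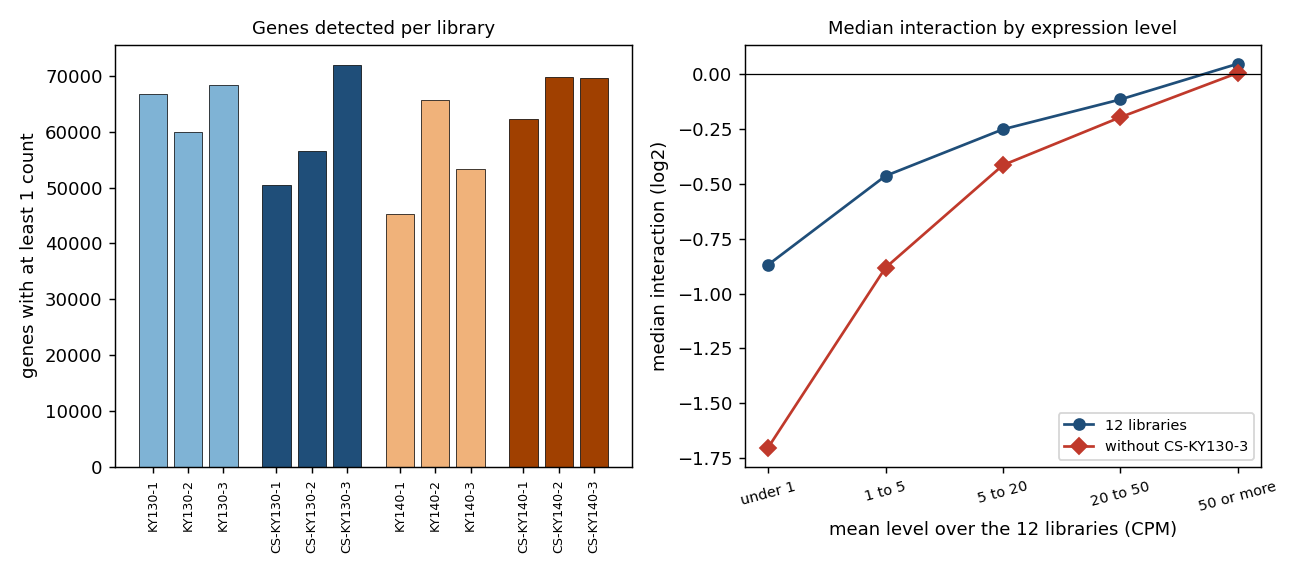
Left, genes with at least 1 count in each of the 12 libraries; right, median interaction (log2) of all tested genes by their mean level in CPM, with 12 libraries (blue) and without CS-KY130-3 (red). Detection ranges from 45305 genes in KY140-1 to 72029 in CS-KY130-3, and the median climbs from −0.87 under 1 CPM to 0.05 at 50 CPM or more with 12 libraries.

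The genes that DESeq2 called differed in level by direction. Of its 244 negative calls with 12 libraries, 104 (42.6%) had a group with no count at all, which included untreated KY140 for 73 (29.9%), and 33 (13.5%) had at least 5 CPM in both cultivars. Of its 134 positive calls, 22 (16.4%) had a group with no count, which included untreated KY140 for 3 (2.24%), and 67 (50%) had at least 5 CPM in both. Over all 62746 genes it tested, these shares were 21.8%, 11.1% and 25.6%. With 12 libraries, DESeq2 was also limited to the 16070 genes with at least 5 CPM in both that it tested. It called 112 positive (0.697%) and 54 negative genes (0.336%), 1.03% in all, so the split turned from mostly negative to mostly positive. Without CS-KY130-3 the same limit gave 162 positive and 164 negative genes of 16007, so the split was then near even and not mostly positive. With 12 libraries and no such limit, numbered genes made up 10.4% of the positive and 4.92% of the negative calls, against 8.52% of the genes it tested.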

How the data were processed

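Leaf RNA was sequenced as poly(A), strand-specific (dUTP) libraries. The authors deposited raw read counts for 114281 genes, not normalized, of which 24264 are numbered and 6017 lie on scaffolds. The aligner, the counter and the genome build were not given in the sources used here. Columns were matched to groups by name, and 0 were left unmatched. A table that only pairs each identifier with itself was left out. Of these identifiers, 0 were found in RefSeq's table, so no sequence is shown, and roles are given only for the 12 genes that the study's text names.

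The main test was that of edgeR 4.0.16 (R 4.3.3): filterByExpr (minimum count 10), TMM, 1 mean per group, quasi-likelihood F test of the interaction, Benjamini-Hochberg adjustment over all tested genes. CPM use TMM library sizes, and detected genes, level classes and the limits of 5 and 20 CPM use library totals. A standard error is the log2FC divided by the square root of F. The floor for a group at 0 was 3 counts per library, counting error only. Correlations used a pseudocount of 1. Genes named beside the 12 were at most 2 in each direction with the lowest p, the same sign without each library in turn and a mean of at least 5 CPM. The members and lists were chosen with earlier results of these data known.

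Alternatives were DESeq2 1.42.0, limma-voom (limma 3.58.1) with quality weights, RLE and upper quartile scaling, no filter, at least 10 counts in 3 libraries, a replicate block, robust dispersions, a fit with Atlantic, a log2 threshold of 1 and leaving out each library. The limit of at least 5 CPM in each cultivar and the joint omission of CS-KY130-1 and KY140-1 were chosen after seeing the data. The scripts were tested on simulated data. Sequencing batches were not stated in the labels or methods.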

Additional observations from a re-analysis of the deposited data

Results flagged for a closer look

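A difference between the cultivars in the same contrast, tested by the interaction itself, passed for 4 named genes. Of these, 3 were named because they passed without CS-KY130-3, so their passing is not a separate result. Only positive calls were named in this way, and the 13 negative calls of that fit are not listed in this section. With 12 libraries, Soltu.Atl.06_2G004220 had an interaction of 4.88 (adjusted p = 0.0398 by edgeR), and without CS-KY130-3 it was 5.13 (adjusted p = 0.00981). Without CS-KY130-3 the interaction also passed for Soltu.Atl.01_4G020550 at 6.88, Soltu.Atl.06_0G011280 at 6.33 and Soltu.Atl.06_3G004590 at 3.92. In Soltu.Atl.06_2G004220 and Soltu.Atl.06_3G004590 all 3 treated libraries lay above the untreated ones in KY130 and below them in KY140.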

How the results depend on the processing

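For the 12 libraries, where edgeR called 1 gene, DESeq2 called 378, limma-voom 2, no low-count filter 466 (202 positive and 264 negative), a fit with all cultivars 12, DESeq2 limited to at least 5 CPM in each cultivar 166, and the joint omission of CS-KY130-1 and KY140-1 0 (4763 at an unadjusted p under 0.05); leaving out each library gave 0 to 162. Without CS-KY130-3, where edgeR called 17, DESeq2 called 1604, limma-voom 1, no filter 1185, robust dispersions 27, all cultivars 497 and DESeq2 with at least 5 CPM 326, and leaving out a further library gave 1 to 258 (1 to 103 with 2 or more libraries in every group, since the 258 leave CS-KY130 with 1 library, assumed to vary like the other groups). The cause of these shifts was not tested.

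Deviations of same-numbered libraries from their group means correlated at r from −0.154 to 0.202 in 18 pairs, 16 of them at or below 0.1. A library correlated best with its own number in 12 of 36 cases. No pairing by number was thus seen, but deviations from means of 3 libraries cannot exclude one. With the replicate number as a block, edgeR called 1 gene with 12 libraries and 9 (4 positive and 5 negative) without CS-KY130-3.

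For the 12 enzyme genes, 263 of 286 alternative values kept their sign and none was called (lowest adjusted p 0.467). The interaction of St4CL was 0.091 by DESeq2, 0.085 with RLE and 0.11 with upper quartile scaling, and 0.089 (edgeR) or 0.042 (DESeq2) with at least 5 CPM in each cultivar. It was −0.040 for StOPCL1 copy a and 0.015 for StGAD by limma-voom, and 0.10 for StPAL without CS-KY130-1 and KY140-1 together. Leaving out each library gave −0.44 to 0.57 for St4CL, −0.18 to 0.35 for StCSE, −1.41 to 0.22 for StLOX1_5, −1.25 to 0.14 for StAOC, −0.47 to 0.35 for StOPCL1 copy a and −0.63 to 0.037 for StGAD. Upper quartile scaling moved the median interaction of all genes from −0.31 to −0.21.

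Depth of 11047494 to 14971945 counts, 3 libraries a group and a coefficient of variation of 92.0% (52.8% for genes with at least 5 CPM in both cultivars) limit the test, and the counting of reads shared between chromosome copies is not known. The intervals of the enzyme genes' interactions include 0, which does not show that the cultivars respond alike.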
